A study of Mus musculus with 9 samples.

Results

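The genes that encode antibodies were followed through RNA sequencing of 9 mouse aortas. The members are all genes whose deposited biotype is immunoglobulin constant, variable (V) or joining (J), which gave 245 of 54532 genes. They comprise 13 constant genes, 218 V segments and 14 J segments. By locus, 125 belong to the heavy chain on chromosome 12, 108 to the kappa light chain on chromosome 6 and 12 to the lambda light chain on chromosome 16.

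Every mouse was Apoe-/-, so the chow controls also lacked apolipoprotein E, a ligand for the clearance of lipoprotein remnants. Mice aged 6 to 8 weeks entered a regimen that lasted 24 weeks, with 3 aortas per group. The CD group ate chow, the HFD group ate a high fat diet, and the HFD_IO group ate the high fat diet and was given ammonium iron(III) citrate into the peritoneum. The labels used here give neither sex, dose nor the part of the aorta taken. Smooth muscle actin transcripts from Acta2 were between 1863 and 6237 FPKM (fragments per kilobase, a level corrected for the length of the gene and for depth) in the 9 libraries, so the defining smooth muscle marker of the vessel wall was present throughout.

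An antibody is built of paired heavy and light chains. A developing B cell joins a V segment to a J segment, with a D segment between them in the heavy chain, and its descendants keep that choice. The constant gene sets the isotype: naive B cells make IgM and IgD, and class switching replaces the constant part of the heavy chain by that of IgG, IgA or IgE. Plasma cells secrete antibody and hold far more immunoglobulin mRNA than resting B cells. In mouse atherosclerosis, B cells gather mainly in the adventitia and in the fat around the vessel, and lymph nodes lie close to the aorta.

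The recovered reads per library numbered between 16660963 and 18308450, and 1 read in a gene of 38 bases was worth 1.42 to 1.62 FPKM. Of the 245 members, 185 had a read in some library, 60 had none (57 V segments and 3 J segments) and 13 had reads in all 9 libraries. The level filter for tests, at least 1 FPKM in 3 or more libraries, was passed by 36 members: 10 constant genes, 19 V segments and 7 J segments. Libraries are named by their column in the deposited table, such as HFD_2, and were assigned only to their group. The labels number the aortas but do not say that each came from a separate animal, so p-values measure the spread between these samples.

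HFD_2 and HFD_IO_2 stood apart from the other libraries in immunoglobulin reads. The members drew 130.4, 47.4 and 51.7 RPM (reads scaled to a library of 1000000) in CD_1, CD_2 and CD_3. They drew 79.9, 1137 and 171 RPM in HFD_1, HFD_2 and HFD_3. They drew 108, 581 and 125 RPM in HFD_IO_1, HFD_IO_2 and HFD_IO_3. The groups overlapped in every pairing, and the highest library exceeded the lowest of its group by 2.75-fold in CD, 14.2-fold in HFD and 5.36-fold in HFD_IO. Group means were 76.5 ± 46.7 (SD, n = 3) RPM in CD, 463 ± 586 in HFD and 271 ± 268 in HFD_IO, and the latter pair became 125 and 116 without HFD_2 and HFD_IO_2. Most immunoglobulin reads of HFD and of HFD_IO thus came from 1 library each, and no p-value was computed for sums over members.

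The 2 libraries also differed from each other in their other lymphoid genes. The summed FPKM of 23 B cell genes was 198 in HFD_2 and lay between 18.5 and 70.0 in the other 8 libraries, with 70.0 in HFD_IO_2. Genes of skeletal muscle, a tissue beside the vessel, summed to 91.3 FPKM in HFD_2 and 59.5 in HFD_3, against 3.63 to 14.0 elsewhere. White adipocyte genes, of the fat around the vessel, summed to 1891 FPKM in HFD_IO_2 against 450.2 and 911 in the other HFD_IO libraries, and to 2832 in HFD_3 against 444 to 1131 in the other HFD and the CD libraries. Blood and erythroid genes summed to 26101 FPKM in HFD_3 and to 2573 to 12375 elsewhere, and smooth muscle genes to 5424 to 6044 in CD, 6943 to 8115 in HFD and 2498 to 4253 in HFD_IO. T cell genes summed to 150.3 in CD_1 and 111 in HFD_2, against 19.4 to 64.6 elsewhere, and CD_1 held the highest Rag1 (7.77 FPKM) and Dntt (10.6 FPKM), genes of antigen receptor recombination. The part of these tissue differences in the immunoglobulin results was not tested, and in these bulk samples fewer cells of a type and less RNA per cell cannot be told apart.

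**Figure D1:**
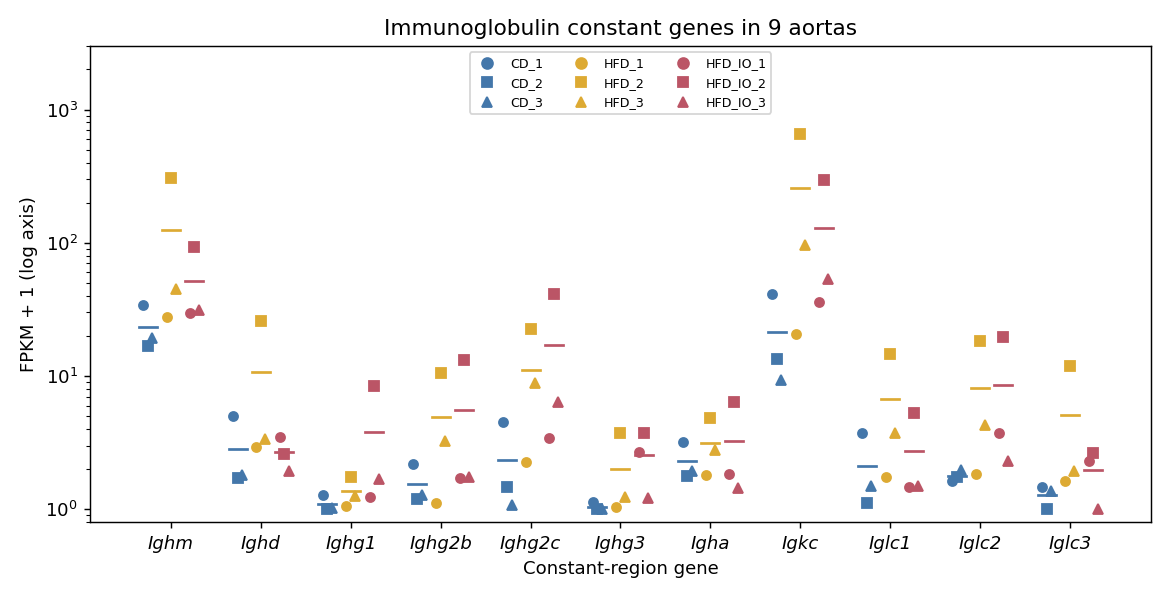
FPKM + 1 on a log axis of 11 constant-region genes in each of 9 libraries, with colour for group, symbol for library and a line at each group's mean. The square symbols of HFD_2 and HFD_IO_2 lie at the top of their groups for most genes, for example Igkc at 659 and 296 FPKM. Outside Ighg3 and Iglc2 in HFD_IO and Iglc3 in HFD, the other libraries of the groups overlap with CD.

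The kappa constant gene Igkc (GRCm38 chr6:70726435-70726754, plus strand), carried by most mouse light chains, was the most abundant member by mean FPKM. Its FPKM was 40.4, 12.5 and 8.36 in CD_1 to CD_3. It was 19.7, 659 and 95.1 in HFD_1 to HFD_3. It was 35.2, 296 and 52.3 in HFD_IO_1 to HFD_IO_3. HFD_1 was below CD_1, so HFD and CD overlapped, and HFD_IO_1 was below CD_1 as well. On the log2(FPKM + 1) scale used for every change here, which understates changes of low genes, Igkc was 2.66 higher in HFD than in CD (SE 1.22) with a limma adjusted p of 0.113. The difference between HFD_IO and CD was 2.26 (limma adjusted p = 0.193), and that between HFD_IO and HFD was -0.40 (limma adjusted p = 0.831). None of the 3 differences passed the threshold of 0.05. Leaving out HFD_1, the HFD library with the lowest Igkc, brought the HFD and CD difference to 3.86 (limma adjusted p = 0.0289), and leaving out HFD_2 or HFD_IO_1 turned the HFD_IO and HFD difference to 0.90 or 0.20.

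Among heavy chains the gene of IgM, Ighm (chr12:113418829-113422730, minus strand), had the most reads in every library. Its FPKM was 33.0, 15.8 and 18.3 in CD, 26.9, 303 and 44.1 in HFD, and 29.0, 91.8 and 30.2 in HFD_IO, in the order of library numbers. CD_1 was above HFD_1 and above 2 of the 3 HFD_IO libraries. Ighm was 1.71 higher in HFD than in CD (SE 0.81, limma adjusted p = 0.125), 0.99 higher in HFD_IO than in CD (0.390), and -0.71 in HFD_IO against HFD (0.540), where omission of HFD_2 gave 0.32. Without HFD_1 the HFD and CD difference was 2.40, with a limma adjusted p of 0.0486. The neighbouring gene of IgD, Ighd, which naive B cells make together with IgM by alternative splicing, read 4.01, 0.716 and 0.809 FPKM in CD, 1.96, 24.9 and 2.36 in HFD, and 2.50, 1.60 and 0.924 in HFD_IO. HFD_IO_2, the library with the second highest Ighm, did not stand out in Ighd. The Ighd difference between HFD_IO and HFD was -1.29 (SE 0.77, limma adjusted p = 0.237).

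The level of all 3 of these genes varied more between replicates than that of most genes. The SD of log2(FPKM + 1) for Igkc was 1.12 in CD, 2.50 in HFD and 1.62 in HFD_IO, beside a median over the 13883 tested genes of 0.17, 0.15 and 0.14. Of the 36 tested members, 13 in CD, 33 in HFD and 29 in HFD_IO had an SD above the 95th percentile of all tested genes, which 5% of genes exceed by construction. Members could pass the level filter through the libraries where they were high, and many V and J segments had few reads. The tested genes were not matched for level either, so these counts are descriptions of the tested members and support no difference. The macrophage gene Cd68 had a narrow range in the same libraries: its highest library exceeded its lowest by 1.14-fold in CD, 1.49-fold in HFD and 1.24-fold in HFD_IO. Cd68 rose by 2.41 in HFD against CD and by 1.58 in HFD_IO against HFD on the same scale, with limma adjusted p of 8.6e-05 and 0.00076.

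IgG took a larger part of the heavy chain in each aorta of the iron group than in any of chow, by reads on the constant genes. The share of IgG, from 4 genes, was 10.5%, 3.29% and 2.37% in CD_1 to CD_3. It was 3.78%, 9.06% and 16.1% in HFD_1 to HFD_3. It was 13.9%, 37.1% and 16.1% in HFD_IO_1 to HFD_IO_3. Every HFD_IO library was above every CD library, also without HFD_IO_2, whereas HFD overlapped with both. The 95% Wilson interval was 35.8% to 38.4% in HFD_IO_2, 12.2% to 15.9% in HFD_IO_1 and 9.05% to 12.1% in CD_1. Reads are not independent molecules after PCR, so such intervals cover counting error only. Shares of FPKM, which take out gene length, gave group means of 5.71%, 10.7% and 23.5% in CD, HFD and HFD_IO, close to the 5.38%, 9.65% and 22.4% of reads. The share of all switched isotypes (IgG, IgA and IgE) by reads did overlap, at 8.65% to 17.5% in CD and 17.3% to 42.0% in HFD_IO.

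IgG2c, a dominant IgG of mouse responses driven by interferon gamma, led the IgG genes in most libraries. Ighg2c (chr12:113285328-113288932, minus strand) read 3.53, 0.470 and 0.0828 FPKM in CD, 1.25, 21.4 and 7.89 in HFD, and 2.45, 40.4 and 5.38 in HFD_IO. CD_1 was above HFD_1 and HFD_IO_1, so the groups overlapped. The difference from CD was 1.99 in HFD (SE 1.05, limma adjusted p = 0.160) and 2.33 in HFD_IO (SE 1.05, limma adjusted p = 0.123). Ighg2b read 1.18, 0.191 and 0.287 in CD, 0.107, 9.51 and 2.23 in HFD, and 0.727, 12.3 and 0.740 in HFD_IO. The coding sequences of Ighg2b and Ighg2c are 87.6% identical, and 9.10% and 5.77% of their 50-base windows occur in another immunoglobulin gene or pseudogene, so a part of their reads could be assigned to either.

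Ighg1 and Ighg3 were low outside a few libraries. Ighg1, whose switching is promoted by interleukin 4, had 334 reads (7.39 FPKM) in HFD_IO_2 and at most 33 reads elsewhere. Ighg3, a response mainly to carbohydrate antigens, read 0.130, 0 and 0 FPKM in CD, 0.0455, 2.76 and 0.245 in HFD, and 1.68, 2.76 and 0.226 in HFD_IO. All HFD_IO libraries were above all CD libraries, which had 6 Ighg3 reads in total, and the difference was 1.15 (SE 0.51, limma adjusted p = 0.120). Omission of HFD_IO_3 brought its limma adjusted p to 0.0435. HFD_IO_1 gave 42.2% of its IgG reads to Ighg3, with HFD_2 next at 11%. The IgG genes of the iron group thus differed in share between its libraries. By reads Ighg3 led in HFD_IO_1, and Ighg2c led in HFD_IO_2 and HFD_IO_3. By FPKM, which takes out gene length, Ighg2c led in HFD_IO_1 as well, with 48.1% beside 33.0% for Ighg3.

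IgA, the isotype of mucosal secretions, held a smaller share outside chow. Its share of heavy chain constant reads was 7.01%, 6.10% and 6.28% in CD, 3.68%, 1.48% and 4.36% in HFD, and 3.17%, 4.76% and 1.67% in HFD_IO. All CD libraries were above the other 6, by a margin between 6.10% and 4.76%. The 95% Wilson intervals were 4.45% to 8.29% in CD_2 and 4.72% to 8.29% in CD_3. Both overlapped with 3.51% to 5.41% in HFD_3 and 4.22% to 5.37% in HFD_IO_2, so this order is partly within counting error. The level of Igha itself did not show such an order: it read 2.22, 0.786 and 0.926 FPKM in CD, 0.814, 3.83 and 1.80 in HFD, and 0.851, 5.42 and 0.446 in HFD_IO. The Igha difference between HFD and CD was 0.38 (SE 0.56, limma adjusted p = 0.608). The CD libraries were thus highest in the share of IgA and not in its level. Ighe, the gene of IgE, had 2 and 8 reads in HFD_1 and HFD_2, 2 and 9 in HFD_IO_1 and HFD_IO_2 and none in the other 5, where a count of 0 allows a share of up to 0.168% to 0.494%.

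**Figure D2:**
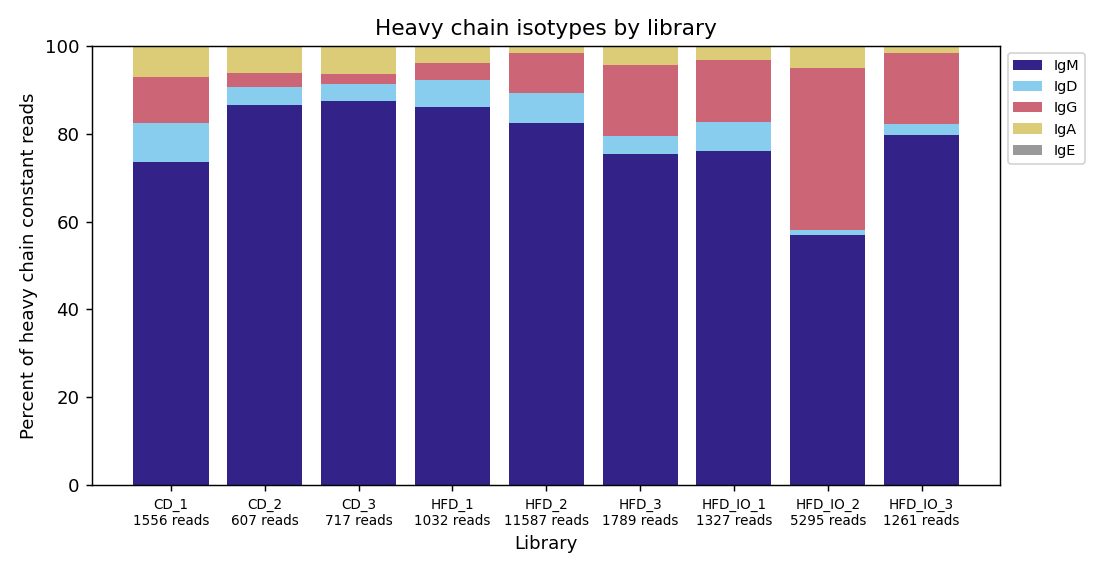
Stacked bars of the percent of heavy chain constant reads that fall on IgM, IgD, IgG, IgA and IgE genes in each library, with the number of those reads under each bar. IgG is widest in HFD_IO_2 at 37.1%, all 3 HFD_IO bars exceed the CD bars in IgG, and IgA is widest in the 3 CD bars.

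Light chains were mostly kappa in every library, as is typical of the mouse. Kappa took 92.1%, 92.9% and 81.8% of light chain constant reads in CD, 89.7%, 94.2% and 93.2% in HFD, and 88.3%, 91.8% and 96.5% in HFD_IO, with overlap between all groups. The ratio of light to heavy constant FPKM was 0.998, 0.742 and 0.50 in CD, 0.707, 1.91 and 1.74 in HFD, and 1.06, 1.98 and 1.40 in HFD_IO. All HFD_IO libraries were above all CD libraries in this ratio, and HFD overlapped with both. The ratio is one of transcripts per length, not of protein chains, which pair in equal number.

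Among lambda genes Iglc2 was the most abundant. It read 0.622, 0.741 and 0.987 FPKM in CD, 0.840, 17.3 and 3.32 in HFD, and 2.74, 18.6 and 1.30 in HFD_IO. All HFD_IO libraries were above CD, with a difference of 1.64 (SE 0.90) that did not pass the test (limma adjusted p = 0.200). Iglc3 read 0.632, 10.8 and 0.953 in HFD, above the 0.481, 0 and 0.365 of CD, and 1.32, 1.65 and 0 in HFD_IO. Iglc1 read 0.755, 13.7 and 2.71 in HFD and overlapped with CD at 2.75, 0.125 and 0.484. Iglc4 had 1 read, in HFD_1. HFD_2 had similar values for all 3 main lambda genes, while HFD_IO_2 had 18.6 of Iglc2 beside 1.65 of Iglc3. The 2 genes are near copies, 96.2% identical, and 14.3% of the 50-base windows of each occur in the other. Their reference coding sequences from GENCODE M21 (GRCm38) are shown to let the difference be seen, over positions 15 to 104 of 314 aligned, with capitals at 7 of the 11 differing bases:
Iglc2: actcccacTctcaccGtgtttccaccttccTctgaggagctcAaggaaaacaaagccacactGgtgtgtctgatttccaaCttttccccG
Iglc3: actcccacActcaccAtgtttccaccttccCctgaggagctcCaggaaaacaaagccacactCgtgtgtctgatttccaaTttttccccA

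J segments, the short stretches between the V segment and the constant gene, had few reads of their own. The 14 segments drew between 3 and 39 reads per library, and Iglj2, Iglj3p and Iglj4 had none. Within the heavy locus Ighj4 had the most, 12 reads over the 9 libraries, and within kappa Igkj5 had 18. In the kappa locus HFD_2 held 9 reads of Igkj2, 11 of Igkj3 and 8 of Igkj5, and no other library held more than 6 of any J segment. J segments encode a conserved motif, phenylalanine or tryptophan followed by glycine, any residue and glycine, that closes the binding loop. The sense strand holds TTCGGNNNNGGN in 8 of the 14 and TGGGGNNNNGGN in 4, 2 have neither, and the other strand holds neither motif in any of them. FPKM used the deposited gene lengths. These exceed the reference sequences below for Ighj2 (100 against 48 bases), Igkj2 (43 against 39) and Igkj5 (42 against 38). The kappa and heavy segments are shown from the GENCODE M21 reference, with matches in capitals, to show how short they are:
Igkj1: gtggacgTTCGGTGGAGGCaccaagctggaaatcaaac
Igkj2: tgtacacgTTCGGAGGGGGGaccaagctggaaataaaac
Igkj3: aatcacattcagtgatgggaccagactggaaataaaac
Igkj4: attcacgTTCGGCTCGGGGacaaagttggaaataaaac
Igkj5: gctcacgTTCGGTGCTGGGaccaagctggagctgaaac
Ighj1: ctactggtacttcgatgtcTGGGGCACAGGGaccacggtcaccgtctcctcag
Ighj2: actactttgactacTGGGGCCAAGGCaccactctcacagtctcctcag
Ighj3: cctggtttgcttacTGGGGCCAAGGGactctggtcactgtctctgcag
Ighj4: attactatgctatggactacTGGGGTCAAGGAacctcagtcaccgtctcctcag

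Among J segments 1 passed the test. Igkj1 (chr6:70722562-70722599, plus strand) was at 0 in all CD libraries and in HFD_1, and read 1.57 and 1.62 FPKM in HFD_2 and HFD_3. It read 1.42, 4.53 and 4.47 in HFD_IO. In reads these values are 1 and 1 in HFD_2 and HFD_3, and 1, 3 and 3 in HFD_IO. HFD_IO lay above CD without overlap, and the fitted difference was 2.07 (SE 0.42, limma adjusted p = 0.0051). Its mean was at least 2.39-fold higher than the level that 3 reads over the CD group would give. The call rests on 7 reads in all, and Igkj4, with 1, 3 and 1 reads in CD and 1, 1 and 0 in HFD_IO, had the opposite order.

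The V segments form the larger part of the binding site and were read far less often than the constant genes. They drew 183, 62 and 74 reads in CD, 149, 2076 and 422 in HFD, and 261, 1870 and 434 in HFD_IO. As a share of immunoglobulin reads this was 8.43%, 7.75% and 8.25% in CD, 10.7%, 10.4% and 13.6% in HFD, and 13.2%, 18.4% and 19.6% in HFD_IO. CD lay below both other groups without overlap, and HFD_IO_1 lay below HFD_3. Of the 14 descriptive measures of amount and composition compared between the 3 pairs of groups, 10 of 42 combinations did not overlap. Near copies are common among V segments: 34 of 218 share over 50% of their 50-base windows with another immunoglobulin gene or pseudogene, and 44 share none.

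The number of V segments seen was not ordered by V reads alone. At least 1 read fell on 57, 28 and 36 V segments in CD, 59, 144 and 92 in HFD, and 74, 97 and 51 in HFD_IO. HFD_IO_3, with 434 V reads, thus had fewer segments than CD_1 with 183. At an equal total of 62 V reads, the expected number was 34.0, 28.0 and 32.7 in CD, 35.7, 40.0 and 36.0 in HFD, and 38.7, 25.8 and 21.5 in HFD_IO. HFD was then above CD without overlap, and HFD_IO_2 and HFD_IO_3 were the lowest of the 9. HFD_2 and HFD_IO_2, with similar V reads, differed: 10 leading V segments held 34.9% of V reads in HFD_2 and 65.8% in HFD_IO_2. In HFD_IO_3 the 10 leading segments held 75.6%, in HFD_3 45.3% and in HFD_IO_1 35.2%.

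The unevenness was then measured within each chain. The effective number of heavy chain V segments, the inverse of the summed squared shares, was 16.7, 9.31 and 11.6 in CD, 12.3, 20.4 and 19.8 in HFD, and 17.2, 7.08 and 3.60 in HFD_IO. That of kappa was 12.9, 7.21 and 10.2 in CD, 17.1, 32.5 and 17.8 in HFD, and 25.4, 7.35 and 4.47 in HFD_IO. HFD was above CD in kappa without overlap. HFD_2 was the most even library in both chains, HFD_IO_1 was second in kappa, and HFD_IO_2 and HFD_IO_3 were the most uneven in heavy chains. The iron libraries thus differed widely among themselves. In CD the heavy chain V reads numbered 22 to 40 per library, which limits this measure. Kappa V reads numbered 32 to 135 per library in CD and 94 to 1181 in HFD. The measure was not corrected for these unequal numbers, which limits the kappa comparison too.

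**Figure D3:**
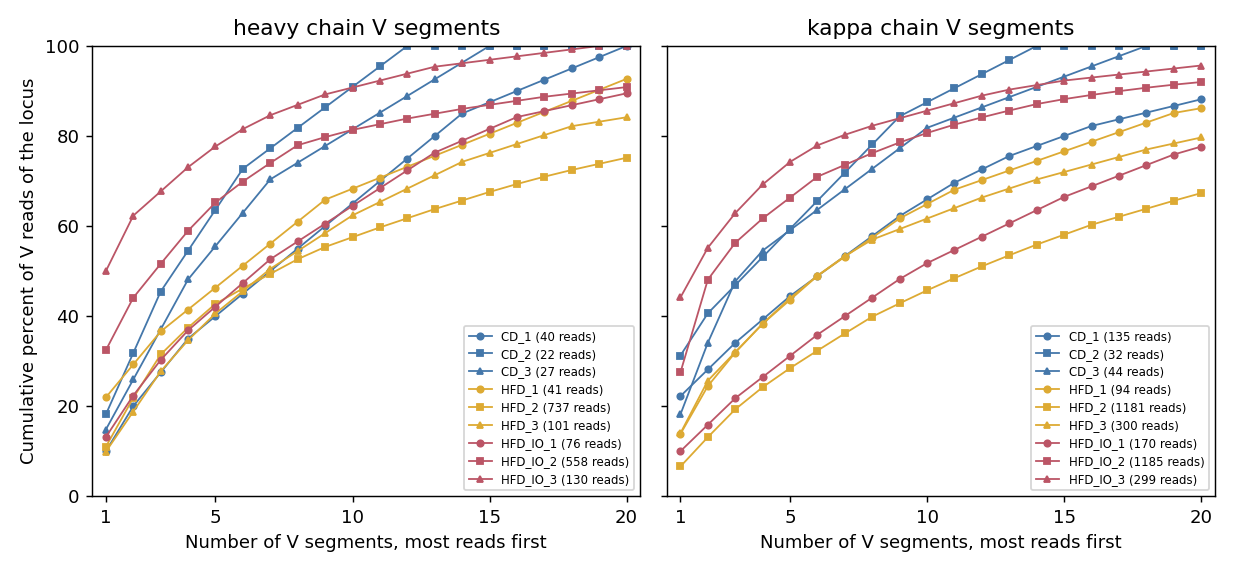
Cumulative percent of V reads held by the leading 1 to 20 V segments, for heavy (left) and kappa (right), 1 line per library with its V reads in the key. HFD_IO_3 and HFD_IO_2 start highest among libraries with over 100 reads, with 65 of 130 and 181 of 558 heavy chain V reads in the leading segment, while HFD_2 is the flattest in kappa.

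In HFD_IO_2 a single heavy chain segment and 2 kappa segments stood out. Ighv5-9-1 (chr12:113736111-113736597, minus strand) held 181 of 558 heavy chain V reads there, 32.4% (95% Wilson interval 28.7% to 36.4%), and at most 25 reads in any other library. Igkv3-2 (chr6:70698468-70699067, plus strand) held 326 of 1185 kappa V reads, 27.5% (25.0% to 30.1%), and Igkv17-127 held 244, 20.6%. The FPKM of Igkv3-2 was 0 in all CD libraries and HFD_1, 3.16 and 6.84 in HFD_2 and HFD_3, and 1.00, 49.5 and 0.749 in HFD_IO. All HFD_IO libraries were above CD, with a difference of 2.49 (SE 1.21, limma adjusted p = 0.149).

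In HFD_IO_3 other segments led. Ighv1-80 (chr12:115912344-115912776, minus strand) held 65 of 130 heavy chain V reads (41.5% to 58.5%), and Igkv4-53 (chr6:69648824-69649354, minus strand) held 132 of 299 kappa V reads, 44.1% (38.6% to 49.8%). Igkv4-53 was at 0 in HFD_IO_2 and at 0.737 FPKM in HFD_IO_1. Neither library shared its leading heavy or kappa segment with the other. For 5 libraries with over 200 V reads, each pair had 1 to 3 of their 10 leading segments in common, which is 10% to 30% of each list. Parts of these segments also occur in relatives: 19.0% of the 50-base windows of Ighv5-9-1, 22.6% of Igkv3-2, 18.5% of Ighv1-80 and 40.8% of Igkv4-53. The last 240 coding bases of the 4 leaders are given from the GENCODE M21 reference, not from the animals, since they show which germline segments dominated. Capitals mark the codon of the conserved cysteine near the end, after which V is joined to J in kappa or to D and J in the heavy chain:
Ighv5-9-1: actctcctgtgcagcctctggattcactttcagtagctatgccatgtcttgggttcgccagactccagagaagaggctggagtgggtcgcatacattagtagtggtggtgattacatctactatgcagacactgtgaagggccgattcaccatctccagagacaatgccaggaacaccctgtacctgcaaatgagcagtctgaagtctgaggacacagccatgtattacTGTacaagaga
Igkv3-2: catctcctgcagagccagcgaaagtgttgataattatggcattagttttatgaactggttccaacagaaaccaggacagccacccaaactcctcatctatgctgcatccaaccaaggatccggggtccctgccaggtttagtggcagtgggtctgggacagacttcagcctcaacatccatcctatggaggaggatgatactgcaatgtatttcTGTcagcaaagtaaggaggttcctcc
Ighv1-80: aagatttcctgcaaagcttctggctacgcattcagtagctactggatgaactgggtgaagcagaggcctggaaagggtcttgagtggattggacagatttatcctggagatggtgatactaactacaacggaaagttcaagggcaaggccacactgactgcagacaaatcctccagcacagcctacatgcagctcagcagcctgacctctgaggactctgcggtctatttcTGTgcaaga
Igkv4-53: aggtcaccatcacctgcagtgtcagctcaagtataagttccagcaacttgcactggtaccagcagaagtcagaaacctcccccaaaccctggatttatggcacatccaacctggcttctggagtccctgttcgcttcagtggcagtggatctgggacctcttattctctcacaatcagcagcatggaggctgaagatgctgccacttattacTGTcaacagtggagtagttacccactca

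Leaders elsewhere took smaller shares. In HFD_2 Ighv1-64 held 81 and Ighv1-22 held 80 of 737 heavy chain V reads, and Igkv6-20 held 78 and Igkv1-135 held 77 of 1181 kappa reads (6.60% for the former). In HFD_3 Igkv3-2 led kappa with 42 of 300 reads (14.0%), and in HFD_IO_1 Igkv14-126 led with 17 of 170. In CD_1 Igkv1-117 led with 30 of 135 (22.2%), in CD_2 Igkv1-110 with 10 of 32 (31.2%) and in CD_3 Igkv3-10 with 8 of 44 (18.2%). Igkv1-117 and Igkv1-110 share 43.5% of 50-base windows, so their reads can be exchanged. Of lambda, Iglv1 led in HFD_2 with 110 of 158 reads and Iglv2 in HFD_IO_2 with 101 of 127, and these segments are 96.9% identical.

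Most V segments with reads owed them to few libraries. Of 71 V segments with at least 20 reads over the 9 libraries, 45 had over 50% of them in a single library. For 44 of the 71 the highest library was HFD_2, for 19 it was HFD_IO_2, for 4 HFD_IO_3 and for 3 HFD_3. The other segment, Igkv14-126, was highest in HFD_IO_1. No segment of this set was highest in a CD library. The minimum of 20 reads admits segments mainly through libraries with many V reads, and CD libraries had 62 to 183. Over all 161 V segments with reads, 7, 2 and 3 were highest in CD_1, CD_2 and CD_3, beside 92 in HFD_2 and 32 in HFD_IO_2. Ties went to the library listed first, with CD before the others. HFD_2 and HFD_IO_2 had the most V reads, 2076 and 1870.

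**Figure D4:**
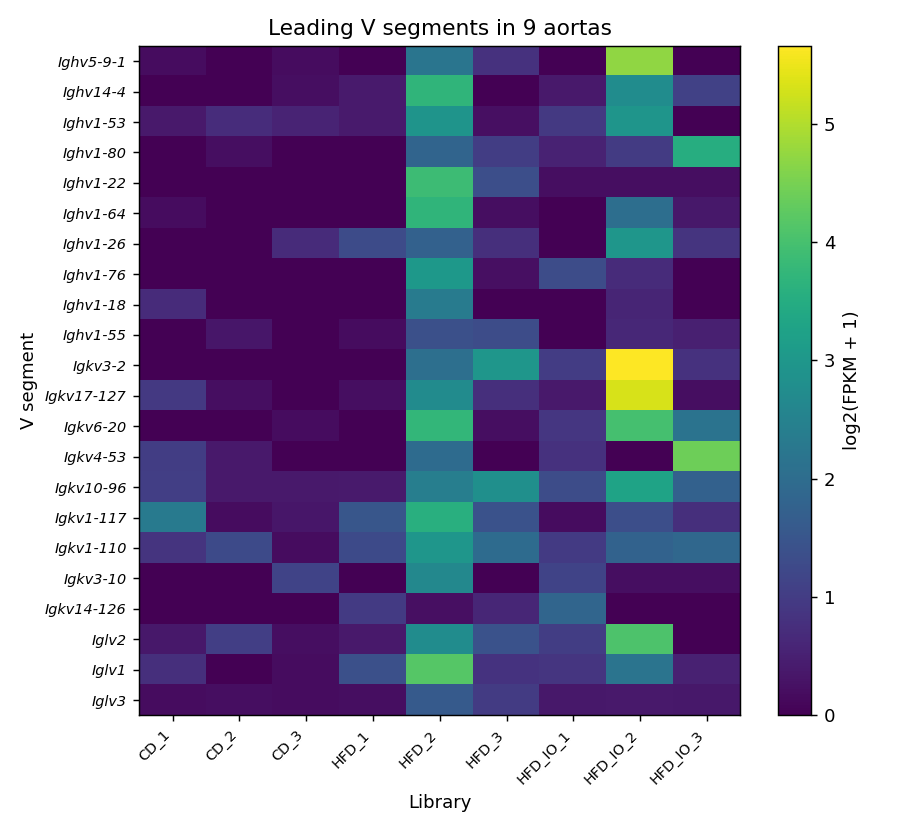
Heat map of log2(FPKM + 1) for 22 V segments (rows: heavy, kappa, then lambda, each by falling mean) in 9 libraries (columns), with brighter colour for higher level. Bright cells sit in the columns of HFD_2 and HFD_IO_2, and Ighv1-80 and Igkv4-53 are brightest in HFD_IO_3 at 10.5 and 20.4 FPKM.

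V segments known from mouse natural antibodies to oxidised lipid and to phosphatidylcholine had few reads in chow; these were chosen after values were seen. Ighv7-1 and Igkv7-33 encode the T15 antibody to phosphorylcholine, which binds oxidised lipoprotein. Each had at most 1 read in any library. Ighv11-2 and Ighv12-3 are used by B-1 cells for antibodies to phosphatidylcholine, together with Igkv14-126 and Igkv4-91. Ighv12-3 had no reads in CD, 2, 3 and 3 in HFD, and 1, 4 and 3 in HFD_IO. Ighv11-2 had no reads in CD and HFD_IO, and 1, 4 and 1 in HFD. Igkv14-126 had no reads in CD, 6, 1 and 3 in HFD, and 17, 0 and 0 in HFD_IO, where it led kappa in HFD_IO_1. Igkv4-91 had 2, 0 and 1 reads in CD, 5, 5 and 6 in HFD, and 0, 31 and 7 in HFD_IO. HFD was above CD in Igkv4-91 without overlap, and the difference of 0.72 (SE 0.52) did not pass the test (limma adjusted p = 0.294). At this depth the chow group allows only a weak statement, since its V reads were few and a count of 0 over the group is compatible with up to 3 reads.

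The high fat diet was set against chow in the tested members first. Of the 36, 2 rose and 0 fell (limma, adjusted p under 0.05), beside 21.8% of all 13883 tested genes that rose and 17.6% that fell. At an unadjusted p under 0.05 there were 4 higher and 0 lower, and limma-voom on the recovered reads called 1 higher and 0 lower. Igkv6-15 (chr6:70406469-70406992, minus strand) read 0.157, 0 and 0.475 FPKM in CD, 0.494, 3.62 and 2.31 in HFD, and 0.312, 1.16 and 0.163 in HFD_IO. HFD was above CD, by a narrow gap between HFD_1 and CD_3, and the difference was 1.25 (SE 0.40, limma adjusted p = 0.0359). Igkv1-110 (chr6:68270527-68271267, plus strand) read 0.813, 1.41 and 0.137 in CD and 1.43, 6.86 and 2.92 in HFD, and rose by 1.30 (SE 0.44, limma adjusted p = 0.0440). HFD_1, with 10 reads of Igkv1-110, was close to CD_2, which also had 10.

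Neither call was stable to the omission of libraries. Igkv1-110 lost its call without CD_1, CD_3, HFD_2 or HFD_3, with limma adjusted p between 0.0720 and 0.143, and Igkv6-15 without CD_1, CD_2 or CD_3, between 0.0558 and 0.105. Without HFD_2 or HFD_3 Igkv6-15 was under the level filter and not tested. The number of members higher was 0 without HFD_2 or CD_3 and 8 without HFD_1. In direction, 34 of the 36 were higher in HFD, with a median of 1.12 beside 0.06 over all tested genes. A member could pass the level filter through HFD libraries alone, so this count and median describe the tested members and support no difference. The groups did not overlap in 6 members, all higher in HFD, beside 28.2% of tested genes apart in that direction.

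Iron was then added to the high fat diet. Of the 36 members, 0 rose and 0 fell between HFD_IO and HFD by limma, beside 14.1% and 14.5% of all tested genes. At an unadjusted p under 0.05, 1 was higher and 1 lower, and limma-voom called 0. The member higher was Igkj1 (1.15, SE 0.42, limma adjusted p = 0.0681) and the member lower was Igkv6-15 (-0.93, SE 0.40, limma adjusted p = 0.112). The former passed without HFD_IO_1 (1.54, limma adjusted p = 0.0311) and the latter without HFD_1 (-1.39, limma adjusted p = 0.0151). Positive differences were 17 of 36, with a median of -0.27 beside -0.00 over all genes. Igkv1-117 was the only tested member whose groups did not overlap, at 0.134, 1.56 and 0.701 FPKM in HFD_IO and 1.84, 10.8 and 1.68 in HFD, beside 24.4% of tested genes apart in that direction. Among constant genes, differences ran from -1.29 for Ighd to 0.45 for Ighg3. The median standard error over tested members was 0.69.

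The iron group was last set against chow, with the CD and HFD_IO libraries already used above. Of 36 members 2 rose and 0 fell by limma, beside 17.5% and 15% of all tested genes, and limma-voom on the recovered reads also called 2 higher and 0 lower. At an unadjusted p under 0.05 there were 4 higher and 0 lower. The 2 called by limma were Igkj1, described above, and Igkv8-24 (chr6:70216858-70217421, minus strand). Igkv8-24 had no reads in CD, 17 reads in HFD_2 and none in HFD_1 or HFD_3, and 10, 10 and 11 reads in HFD_IO (1.48, 1.57 and 1.71 FPKM). Its level in the iron group was 1.59 ± 0.114 FPKM (SD, n = 3), and none of its 50-base windows occur in another immunoglobulin gene or pseudogene. It rose by 1.37 (SE 0.44, limma adjusted p = 0.0415), and its mean was at least 10.5-fold higher than the level that 3 reads over the CD group would give. Omission of any of the 6 libraries of these groups moved its limma adjusted p to between 0.0783 and 0.101, and the call was lost. The groups did not overlap in 10 members, all higher in HFD_IO, beside 24.3% of tested genes, and 31 of 36 differences were positive with a median of 0.93 beside -0.01 over all tested genes. Members at 0 in CD, such as Igkj1 and Igkv8-24, passed the level filter through the other groups, so this count and median are descriptions and support no difference.

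Some B cell genes beside the immunoglobulin genes separated HFD_2 from HFD_IO_2, and others did not. Cd79a, the signalling partner of surface immunoglobulin, read 3.88, 1.28 and 2.60 FPKM in CD, 3.61, 43.0 and 6.29 in HFD, and 3.15, 2.60 and 1.59 in HFD_IO. Ms4a1, which encodes CD20, read 6.07 in HFD_2, 0.380 in HFD_IO_2 and at most 0.806 in the other libraries. HFD_2 was thus high in immunoglobulin and in these B cell genes, and HFD_IO_2 was high in immunoglobulin and not in Cd79a or Ms4a1. Other genes of the B cell list were high in all HFD_IO libraries: Cd22, an inhibitory lectin of B cells, read 0.970, 0.641 and 0.664 FPKM in CD, 5.57, 8.23 and 2.06 in HFD, and 9.70, 8.01 and 6.07 in HFD_IO.

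The libraries were also compared by ratios within a library. Igkc over Cd79a was 10.4, 9.71 and 3.22 in CD, 5.45, 15.3 and 15.1 in HFD, and 11.1, 114 and 32.8 in HFD_IO. All HFD_IO libraries were above all CD libraries, also without HFD_IO_2. Summed IgG FPKM over Cd79a was 1.32, 0.515 and 0.150 in CD, 0.407, 0.802 and 1.69 in HFD, and 1.61, 24.2 and 4.42 in HFD_IO, again above CD without overlap. These orders hold for Cd79a as the divisor only. Cd22, unlike Cd79a, was higher in all HFD_IO libraries than in all CD libraries, and ratios to it or to other B cell genes were not computed. The ratios of Ighm and of the plasma cell gene Jchain to Cd79a overlapped between HFD_IO and CD. Ighm over Cd79a was 9.18 in HFD_IO_1, below 12.3 in CD_2. Jchain over Cd79a was 0.300 in HFD_IO_1, below 0.334 in CD_1. HFD_IO_2 and HFD_IO_3 were above all CD libraries in both. Neither ratio was among the descriptive measures counted above. HFD_2, with the most immunoglobulin reads, had ratios inside the range of the other HFD and CD libraries for IgG.

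**Figure D5:**
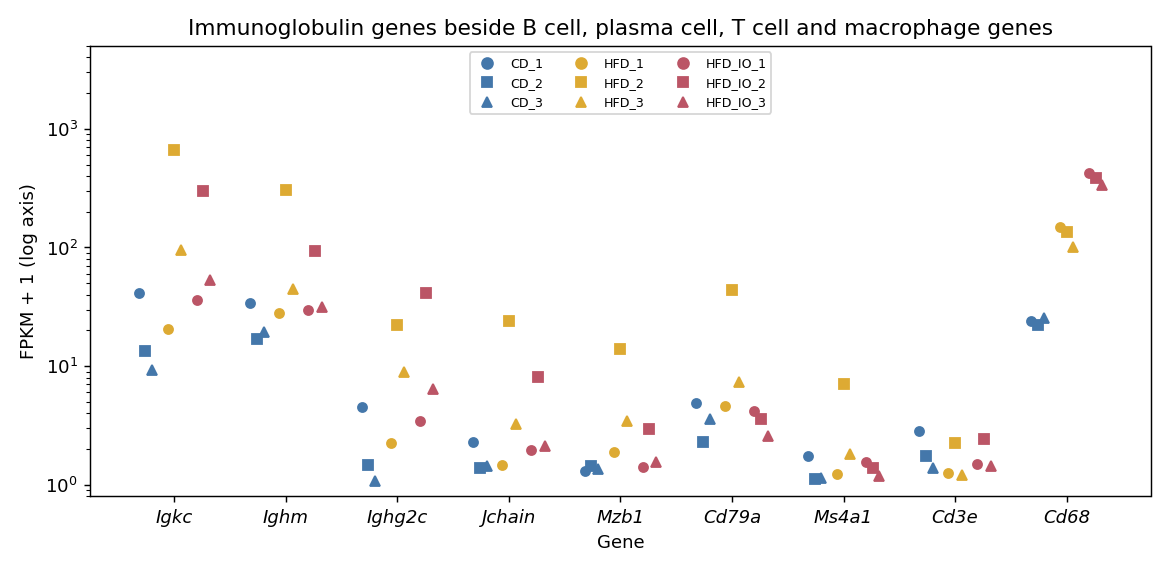
FPKM + 1 on a log axis for Igkc, Ighm and Ighg2c beside the plasma cell genes Jchain and Mzb1, the B cell genes Cd79a and Ms4a1, the T cell gene Cd3e and the macrophage gene Cd68 in each library. HFD_2 (yellow square) is highest for both B cell genes shown, HFD_IO_2 (red square) is high for Igkc and Ighg2c and not for these 2 B cell genes, and Cd68 separates the 3 groups.

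Genes of antibody secretion followed both libraries in part. Jchain, which links IgM and IgA into polymers, read 1.30, 0.383 and 0.436 FPKM in CD, 0.477, 22.8 and 2.22 in HFD, and 0.945, 7.13 and 1.13 in HFD_IO. Mzb1, a chaperone of immunoglobulin assembly, read 0.300, 0.438 and 0.364 in CD, 0.884, 12.8 and 2.45 in HFD, and 0.418, 1.96 and 0.563 in HFD_IO. HFD_2 was highest and HFD_IO_2 next in Jchain, and HFD_3 was above HFD_IO_2 in Mzb1. Neither passed in HFD against CD: Jchain differed by 1.54 (limma adjusted p = 0.212) and Mzb1 by 1.71 (limma adjusted p = 0.0531).

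Other genes of the lineage were read from lists, beside which the shares of all tested genes that rose and fell were 21.8% and 17.6% in HFD against CD, 14.1% and 14.5% in HFD_IO against HFD, and 17.5% and 15% in HFD_IO against CD. Of 20 plasma cell genes 17 were tested, and 6 rose in HFD against CD, 5 rose and 3 fell in HFD_IO against HFD, and 7 rose and 2 fell in HFD_IO against CD. The 3 and 2 that fell are near the share over all tested genes. The largest rises in HFD against CD were in Cd38 (1.48), Slamf7 (1.22) and Sdc1 (1.08), and in HFD_IO against HFD in Slamf7 (2.11) and Cd38 (1.01), with limma adjusted p between 0.0015 and 0.0229. All 3 encode surface proteins that macrophages and other cells express as well as plasma cells. Of 23 B cell genes 10 were tested, and 5 rose in HFD against CD, 2 in HFD_IO against HFD and 5 in HFD_IO against CD (Cd22, Blnk, Btk, Cd37 and Fcrl1), with no falls. Cd79b, the partner of Cd79a, rose by 2.05 in HFD against CD (limma adjusted p = 0.0328), at 2.66, 1.11 and 1.27 FPKM in CD and 3.71, 36.5 and 5.98 in HFD. The 2 that rose in HFD_IO against HFD were Btk (1.06) and Cd37 (0.73), which myeloid cells express too (limma adjusted p = 0.0089 and 0.0295). The median difference of the B cell list was 1.32, 0.27 and 1.10 in that order, beside 0.06, -0.00 and -0.01 over all tested genes. Of the 13 T cell genes tested, 0 passed in each comparison by limma or limma-voom, and 0 had an unadjusted p under 0.05.

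The IgG receptor genes Fcgr1, Fcgr2b, Fcgr3 and Fcgr4 rose against CD in both high fat diet groups, as did most macrophage genes. Fcer1a, Fcmr and Trim21 passed in neither, and Fcgrt passed in HFD only. Of 12 genes of immunoglobulin transport and Fc receptors 9 were tested, and 6 rose in HFD against CD, 5 rose and 1 fell in HFD_IO against HFD, and 5 rose in HFD_IO against CD. Fcgr4, a receptor for IgG2c and IgG2b, read 4.03, 2.66 and 1.88 FPKM in CD, 17.8, 18.2 and 10.8 in HFD, and 33.2, 46.1 and 20.2 in HFD_IO. The 3 groups did not overlap, and the difference was 2.11 in HFD against CD and 1.00 in HFD_IO against HFD (limma adjusted p = 0.0018 and 0.0443). Fcgr2b, the inhibitory Fc receptor, rose by 1.47 and 1.02 in these comparisons (limma adjusted p = 0.00065 and 0.0035). Fcgrt, the neonatal receptor that protects IgG from breakdown, rose by 0.62 in HFD against CD and fell by 0.89 in HFD_IO against HFD (limma adjusted p = 0.0329 and 0.0113). Pigr, which carries polymeric antibody across epithelia, read at most 0.0707 FPKM. Macrophage genes rose in 7 of 8, 7 of 8 and 8 of 8 in the 3 comparisons, and their part in the Fc receptor results was not tested.

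Genes of lymph node stroma and follicles were read last. Cxcl13, a chemokine that draws B cells, read 0.946, 0.887 and 0.478 FPKM in CD, 4.77, 22.1 and 23.0 in HFD, and 2.49, 7.58 and 2.96 in HFD_IO. It rose by 3.07 in HFD against CD (limma adjusted p = 0.0031), and HFD_1, the lowest of its group in Igkc, was also its lowest in Cxcl13. The highest of the group differed: it was HFD_3 in Cxcl13 and HFD_2 in Igkc. Of the 14 lymph node and follicle genes 7 were tested, and 4 rose in HFD against CD, 0 passed in HFD_IO against HFD (limma, with 3 at an unadjusted p under 0.05 and 0 by limma-voom) and 2 rose in HFD_IO against CD.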

How the data were processed

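Messenger RNA was measured by RNA sequencing in 9 aortas, 3 per group. Per the labels' protocols, a Qiagen kit served for extraction and an NEBNext Ultra kit for libraries. The submitters' processing notes name HISAT2 and hg38, a human build, although the identifiers are of mouse genes: all 245 members have the position that GENCODE M21 gives on GRCm38. How reads were counted, and on which strand, is not given in the sources used here.

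Per gene and library the authors deposited FPKM, with gene lengths. FPKM times length was a whole multiple of 1 step (within 0.05 of a read) for 100% of values, so reads were recovered from it. They sum to 16660963 to 18308450 per library, and the scaling the FPKM imply was 0.895 to 1.104 times those sums. Shares of reads, V usage and Wilson intervals (95%) used recovered reads, and levels used FPKM.

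Tests were read from 1 fit over all genes: limma 3.58.1 in R 4.3.3 with a trend on log2(FPKM + 1), all 9 libraries, genes with at least 1 FPKM in 3 or more libraries, p-values adjusted by Benjamini-Hochberg over the 13883 tested genes. The calculation was tested on simulated data. Named were all constant genes, J segments with reads, the 5 V segments of highest mean per locus, V segments past the threshold, the leading V segment of each library and locus, and a few genes of each list; Igkv1-135, Igkj4 and the natural antibody segments were named after their values were seen. Members and gene lists were chosen with earlier results of these data known. Alternatives were other pseudocounts, filters, scalings, limma-voom on recovered reads, 2 groups alone and omission of each library. Omission of both HFD_2 and HFD_IO_2, and voom without the level filter, were chosen after seeing the data. Sequences are reference transcripts, cut to stretches.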

Additional observations from a re-analysis of the deposited data

How the results depend on the processing

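Depth limits these results: V and J segments rest on few reads in most libraries, and 3 libraries per group gave wide errors where 1 library was high. No paired analysis was possible because the numbers of the aortas run from 1 to 9 and are not shared between groups, and those of the table's columns name libraries only. Every alternative listed was run. The number of members higher in HFD than in CD, 2, was 3 with a pseudocount of 0.1 or 0.01, 4 with no filter, 0 with an FPKM minimum of 5 (where 3 members were tested), 1 after rescaling to TPM, 1 after quantile normalization, 1 with voom and 0 with the 2 groups alone. It ranged from 0 to 8 on omission of a library, was 0 without both HFD_2 and HFD_IO_2, and was 4 with voom and no level filter. The number lower, 0, was 1 (Igkj4) without HFD_2, a range of 0 to 1, and 1 without both. In HFD_IO against HFD the number higher, 0, ranged from 0 to 1 (1 without HFD_2 or HFD_IO_1). The number lower, 0, ranged from 0 to 2 (2 without HFD_1), and was 1 with no filter and 1 with voom and no level filter. In HFD_IO against CD the number higher, 2, was 3 with a pseudocount of 0.01 or with voom and no level filter, 0 with an FPKM minimum of 5, 1 without both HFD_2 and HFD_IO_2, and ranged from 1 to 2, with 1 on omission of CD_1, CD_2, CD_3 or HFD_IO_2. Igkj1 passed in HFD_IO against CD under each alternative in which it was tested. Igkv8-24 did not pass with a pseudocount of 0.01, with no filter, or on omission of any library of these groups. On omission of a library, the HFD_IO and HFD difference ranged from -1.40 to 0.32 for Ighm and from -1.60 to 0.90 for Igkc. Immunoglobulin as a share of TPM was 0.0241%, 0.153% and 0.103% in CD, HFD and HFD_IO, against 0.00765%, 0.0463% and 0.0271% of reads. IgA in CD was 4.64% by FPKM, and kappa in HFD was 89.6% by V segments. V segments seen averaged 11.7 in CD and 44.3 in HFD_IO at 3 reads or more, and 37.2 in HFD and 28.7 in HFD_IO at an equal total. The cause of these shifts was not tested. Over all alternatives, 177 values of groups and counts stayed within the replicate spread or 1.5 times, and 36 did not. Omission of 1 of 3 libraries cannot move a group mean by more than the SD of that group. Such omissions counted as within the spread by construction, so this tally does not measure stability. Of single genes, 226 values kept their direction and call, 24 lost the call, 5 gained it and 3 turned in direction.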
